A study of Sus scrofa with 12 samples.

Results

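The transcripts described here are those of pig oocytes that were level or lower after the first part of in vitro maturation and then more abundant at its end than midway. They were chosen by their own values: a mean of at least 5 FPKM at 46h, a 46h mean at least 2 times the 22h mean, a 22h mean at most 5/4 of the 0h mean, and a lowest 46h library above the highest 22h library, with genes of the mitochondrial genome left out. FPKM is the number of fragments scaled to transcript length and to the size of the library. Levels of different genes can be set side by side only as far as their RNAs are copied equally well. The rule found 149 transcripts among 31908 gene identifiers, 125 of them with a gene symbol and 24 without, against 90 that were up by 22h and 363 that stayed until 22h and were then lost. All 149 were among the 7013 genes that averaged 1 FPKM or more across the libraries, the genes tested below, and they were 2.12% of those. That base also holds genes which the rule's floor excludes, as 3443 genes had a 46h mean of at least 5 FPKM. Since the rule used all 3 stages, the stage differences of the 149 transcripts are given as descriptions. Where the calls of a fit over all genes are counted among them, nothing is read from the counts.

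The oocytes came from antral follicles of slaughterhouse ovaries of prepubertal gilts and were matured for 0h, 22h or 46h inside their cumulus cells, which were stripped off with hyaluronidase before lysis. The middle stage is 22h in the label of every sample and in the study's methods, and 24h in the series' design text. Each of the 3 stages had 4 libraries, and by the study's methods every library pooled 20 oocytes. Oocyte complexes were pooled before culture, the oocytes of a library were not staged one by one, and no untreated or time-matched control was part of the design. All libraries were made by SMART-Seq2, in which an oligo(dT) primer copies RNA from its poly(A) tail, so a change in the number of molecules and a change in how well a tail is primed cannot be told apart.

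A fully grown oocyte is close to silent in transcription and lives on mRNA stored during growth. During maturation many stored mRNAs are degraded, while others keep a short poly(A) tail until a late step, when cytoplasmic polyadenylation lengthens the tail and translation begins. Proteins made in this way drive the exit from the first meiotic division and the arrest at metaphase of the second, and some stocks are laid down for the embryo. The signals best known for it lie close to the end of the 3′ UTR: the cytoplasmic polyadenylation element, and the hexamer at which the tail is added.

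The 3′ ends of 5 of these mRNAs show the layout of both signals, the element (TTTTAT or TTTTAAT) and the hexamer (AATAAA or ATTAAA) in capitals, as read 5′ to 3′ from the RefSeq annotation of Sscrofa11.1. They are the 5 with the highest 46h level among those on which both signals fit into 30 bases, ART3 left aside because its element lies downstream of the hexamer.
CTBS, chr6:129207827-129207856, plus strand: tctgtactTTTTATtcAATAAAcctaagtt
TAF9, chr16:47494861-47494890, minus strand: TTTTATcagcctttaagtgtaaaaAATAAA
RAD51AP1, chr5:65872287-65872316, minus strand: tctggtcactTTTTAATAAAaaatttttga
DCLRE1A, chr14:124144289-124144318, minus strand: acTTTTATatgatatatatactaAATAAAa
CYB5A, chr1:149773190-149773219, plus strand: tttgttcagaTTTTAATAAAcatatatctg
The element ended before the hexamer began in CTBS, TAF9 and DCLRE1A, and the 2 signals shared bases in RAD51AP1 and CYB5A.

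The libraries differed in ways that touch these transcripts. The lowest correlation between 2 libraries of a stage was 0.934 at 0h, 0.961 at 22h and 0.982 at 46h. Replicate 4 at 0h held the lowest value of its stage for 118 of the 149 transcripts (79.2%, against 27% of all genes tested), and replicate 1 at 22h did so for 98 (65.8%, against 28.8%). Of 25 oocyte markers 20 were matched, with summed levels between 46422 and 64095 FPKM at 0h and between 79513 and 83778 FPKM at 46h. A few abundant genes carried that sum, such as BTG4, with means of 15762 and 28330 FPKM, and OOSP3, with 11073 and 28057 FPKM, while 13 of the 20 were called lower at 46h than at 0h, as 39.1% of all genes tested were, and 4 higher, as 16.8% were. Of 30 cumulus and granulosa markers 27 were matched, and 6 were at 0 in all 12 libraries. Their summed level lay between 55.8 and 94.8 FPKM at 0h, between 62.6 and 94.9 FPKM at 22h and between 124 and 148 FPKM at 46h. Most of it was VCAN, with means of 58.3, 65 and 126 FPKM, and without VCAN the ranges were 12.9 to 26.7, 14.9 to 17 and 11 to 19.1 FPKM. For 14 matched blood, immune, endothelial and theca markers, 5 of them at 0 in all 12 libraries, the same ranges were 13.3 to 18.8, 11.9 to 30 and 26 to 28.5 FPKM, and without PECAM1 5.61 to 8.62, 5.91 to 10.8 and 4.14 to 5.04 FPKM. No marker was among the 149, and the part of other cells in the late rise was not tested.

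As a group the 149 transcripts made up 1.65%, 1.75%, 1.22% and 0.787% of the summed FPKM at 0h, 0.809%, 1.15%, 1.24% and 1.36% at 22h, and 2.29%, 2.46%, 2.59% and 2.77% at 46h. The 46h libraries were above all others, the 0h and 22h libraries overlapped, and the lowest share of each of the first stages was in the library that stood apart. A level is a share of its library, so a gain in these mRNAs and a loss of other mRNA cannot be told apart. Fewer cells of a type and less RNA per cell cannot be told apart either. Genes at 1 FPKM or more numbered 6682 to 7135 in the 22h libraries and 5819 to 6076 in the 46h libraries. The median transcript read 22.3, 23.5, 17.3 and 11.7 FPKM at 0h, 12.6, 16.5, 18.1 and 15.8 at 22h, and 35.5, 35.6, 40 and 42 at 46h.

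**Figure D1:**
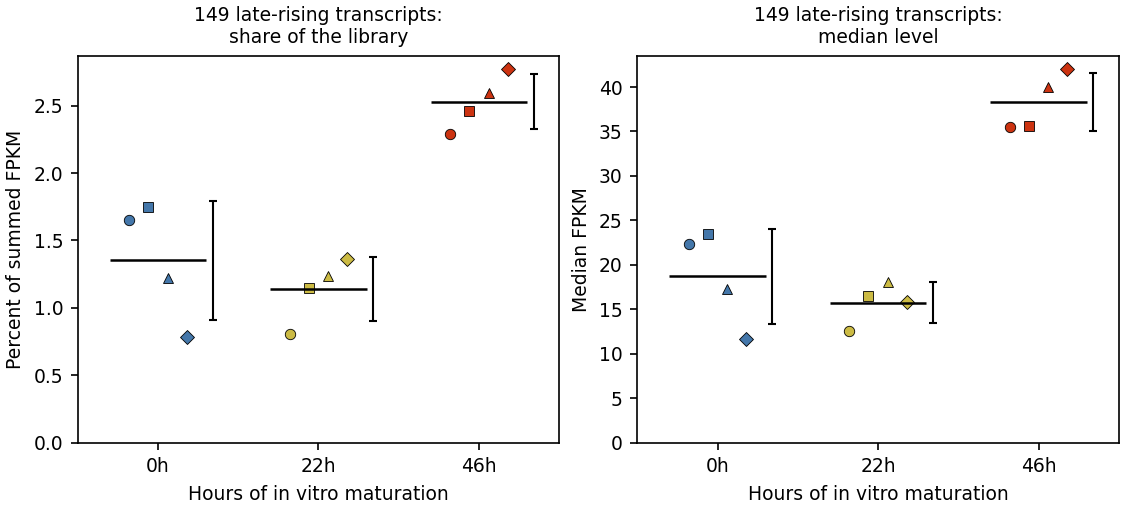
Share of the summed FPKM held by the 149 late-rising transcripts (left, percent) and their median FPKM (right) in each of the 12 libraries, by hours of maturation. Circles, squares, triangles and diamonds are replicates 1 to 4, lines are stage means and bars are 1 SD (n = 4). The share ran from 2.29% to 2.77% at 46h and from 0.787% to 1.75% before.

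Most of these mRNAs were already held by the oocyte at the start. The 0h mean was at least 1 FPKM for 148 of the 149 and at least 5 FPKM for 122. At 46h their means ran from 5.05 to 1184 FPKM, with 47 transcripts at 100 FPKM or more, 86 between 10 and 100 and 16 below 10. Their stage means had medians of 18.9, 15.9 and 38.3 FPKM in order of stage, the last held up by the rule's floor and ratio.

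The ratio of the 46h mean to the 22h mean, which the rule held at 2 or above, had a median of 2.28, near that floor as such a choice tends to give. It was under 2.5 in 105 transcripts, at least 3 in 15 and at least 4 in 4, namely TBK1, SAG and the identifiers ENSSSCG00000050014 and ENSSSCG00000039731. In limma on log2(FPKM + 1), where a gene was called at an adjusted p under 0.05 and a fold change over 1.5, 692 genes (9.87%) were higher at 46h than at 22h and 2283 (32.6%) were lower. That balance depended on scaling, with 1408 higher and 1769 lower after scaling by median ratios and 1920 higher and 1501 lower after quantile normalization. The 149 transcripts were all among the former, as the rule all but requires. The median log2 difference was 1.15 over the 149 and -0.26 over all genes tested.

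Against the start of maturation the picture was less even. The 46h mean was at least 2 times the 0h mean in 103 of the 149, under 1.5 times in 16 and below the 0h mean in 3, with a median of 2.33. All 46h libraries lay above all 0h libraries in 123 transcripts (18.2% of all genes tested did so), and the stages overlapped or were reversed in the other 26. In the same fit 131 were higher at 46h than at 0h, where 16.8% of all genes were, and 1, PRDX2, was lower, where 39.1% were.

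Between 0h and 22h, 110 transcripts were flat, with a 22h mean of 0.8 to 5/4 times the 0h mean, and 39 dipped below 0.8. The libraries of both stages overlapped in 135. All 22h libraries were below all 0h libraries in 11 (18.6% of all genes tested) and above them in 3 (10.3%), UGP2 and ACTR6 among them. Limma called 10 lower at 22h than at 0h, where 18.9% of all genes were, and this count rested on a library: it was 21 without 0h replicate 4 and 15 without that library and 22h replicate 1. For the 39 that dipped, the 46h mean had a median of 1.57 times the 0h mean, against 2.47 for the flat ones.

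**Figure D2:**
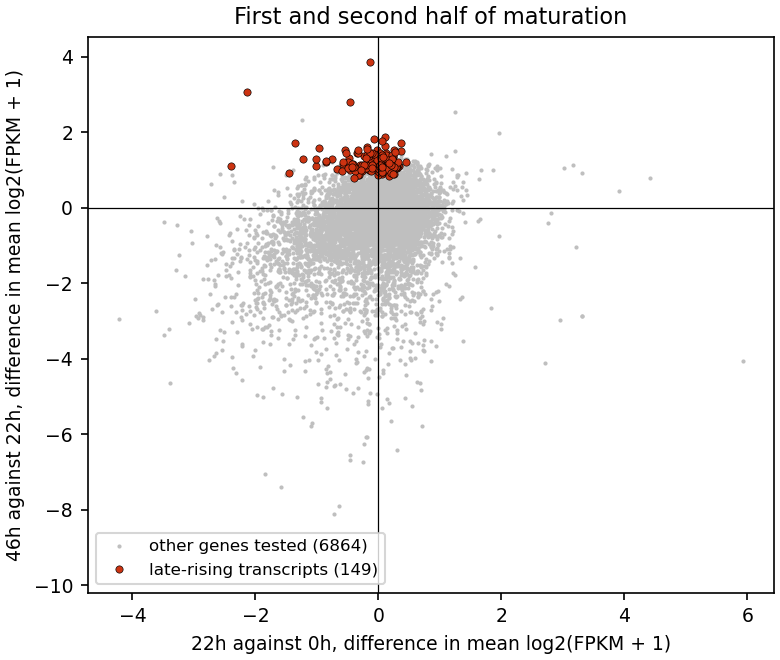
Difference in mean log2(FPKM + 1) from 0h to 22h (horizontal) and from 22h to 46h (vertical) for the 149 late-rising transcripts (red) and the other 6864 genes tested (grey). The red points sit in the band the rule sets, most of them near 0 on the horizontal axis, while many grey points lie below 0 on the vertical axis, where the median of all genes was -0.26.

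Of the named members 17 act in the spindle, the kinetochore or cell division. The spindle checkpoint delays anaphase until each kinetochore, the protein platform on the centromere, holds microtubules, and shugoshins shield the cohesin that keeps sister chromatids together into the second division. MAD2L1 (ENSSSCG00000036256, chr8:103927358-103936669), the checkpoint protein that binds and restrains the activator of the anaphase-promoting complex, read 393, 433, 341 and 177 FPKM at 0h, 243, 415, 300.2 and 369.8 FPKM at 22h and 719.6, 685, 649 and 802 FPKM at 46h. All 46h libraries were above all earlier ones, and 0h replicate 4 was the lowest of the 12. The 46h mean was 2.15 times the 22h mean and 2.13 times the 0h mean. SGO2, the shugoshin best known for guarding centromeric cohesin in meiosis, read 87.8, 103, 66.5 and 26.3 FPKM at 0h, 44.0, 76.3, 72.8 and 64.8 FPKM at 22h and 150.4, 185, 120.2 and 165 FPKM at 46h. Its relative SGO1 read 27.8, 40.02, 32.3 and 31.1 FPKM at 0h, 30.5, 35.8, 26.2 and 25.1 FPKM at 22h and 71.9, 59.4, 54.4 and 67.6 FPKM at 46h. Both were separated from the earlier stages, and in SGO1 the 0h replicate 4 was not low.

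NDC80 (ENSSSCG00000003697, chr6:104000794-104055785), the kinetochore protein that grips the microtubule, read 202, 257, 159 and 139 FPKM at 0h, 119, 184, 161 and 188 FPKM at 22h and 331, 368, 329.8 and 407 FPKM at 46h. Its 46h libraries lay above all earlier ones, at 2.2 times the 22h mean. NDC80 works in a complex of 4 proteins, and its partners, named here after their values were seen, did not show the same step. NUF2, with which it pairs, had means of 144, 140 and 177 FPKM at 0h, 22h and 46h and passed the limma threshold in neither comparison with 46h. SPC25 read 161, 193, 167 and 145 FPKM at 0h, 177, 194, 134 and 151 FPKM at 22h and 5.78, 3.74, 3.27 and 5.16 FPKM at 46h, and SPC24 read 202, 198, 227 and 323 FPKM at 0h, 62.4, 13.9, 51.5 and 39.3 FPKM at 22h and 1.82, 1.88, 3.04 and 2.89 FPKM at 46h. Both were called lower at 46h than at 22h, and for both every 46h library was below every earlier one. Under the other 4 scalings the log2 difference between 46h and 22h ran from 0.25 to 0.69 for NUF2, from -3.66 to -2.98 for SPC24 and from -5.06 to -4.46 for SPC25. Among the 4 mRNAs of this complex, the order of mean FPKM at 46h was NDC80, NUF2, SPC25 and SPC24, while at 0h the mean of SPC24 had been the highest.

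ZWILCH, a subunit of the complex that recruits dynein and checkpoint proteins to kinetochores, had means of 44.4 ± 8.65 FPKM at 0h, 49.4 ± 9.01 at 22h and 120 ± 20.6 at 46h (SD, n = 4). Its partners ZW10 and KNTC1 were called in neither comparison with 46h, with means of 22.7, 19.9 and 15.5 FPKM and of 5.08, 4.33 and 3.75 FPKM, and the sign of both between 46h and 22h turned under some scalings, from -0.42 to 0.14 for ZW10 and from -0.24 to 0.36 for KNTC1. CENPI, a subunit of the inner kinetochore, had means of 15.8, 14.4 and 29.6 FPKM. DLGAP5, a spindle-stabilising protein, read 325, 383, 249 and 119 FPKM at 0h, 209, 253, 215 and 215 FPKM at 22h and 475, 423, 373 and 525 FPKM at 46h, and here the lowest 46h library lay below the highest at 0h. CDC16, a subunit of the anaphase-promoting complex, had a lower level, with means of 4.59 ± 1.47 FPKM at 0h, 4.66 ± 1.41 at 22h and 14.4 ± 4.35 at 46h. PBK, a mitotic kinase, had means of 79.3, 91.7 and 230 FPKM. CKAP2 and CKAP2L, proteins of spindle microtubules, had means of 54.6, 51.3 and 106 FPKM and of 26.6, 16 and 34.3 FPKM, and ZNF207, a zinc finger protein that binds the checkpoint protein BUB3, of 9.95, 7.39 and 20.2 FPKM. In CKAP2L and ZNF207 the lowest 46h library lay below the highest at 0h. BUB3, named after its values were seen, had means of 59.7, 48.7 and 5.48 FPKM. It was called lower at 46h than at either earlier stage. CEP57L1, a relative of a centrosome protein, had means of 97.1, 107 and 241 FPKM. Of 155 centrosome, cilium, kinesin and tubulin genes tested 5 (3.23%) were members, against 2.12% of all genes. Among these members only CEP57L1 met the rule every time a library was left out. Of the 44 kinetochore and checkpoint genes tested, on a list written after values had been seen, 6 (13.6%, against 2.12% of all genes tested) were members (MAD2L1, NDC80, SGO1, SGO2, ZWILCH and CENPI). On the same list 10 (22.7%, against 9.87%), those members included, were higher at 46h than at 22h and 13 (29.5%, against 32.6%) were lower. The median log2 difference over that list was -0.07, against -0.26 over all genes tested. NDC80, SGO1, SGO2 and ZWILCH met the rule every time a library was left out, and MAD2L1 and CENPI did not. A wider list of meiosis II and cell cycle genes, 38 of them tested, held 4 members (10.5%), MAD2L1, SGO1, SGO2 and CDC16. Of those 38 genes 5 (13.2%) were higher at 46h than at 22h and 17 (44.7%) were lower, with a median of -0.20. CENPN just missed the rule, its 22h mean being over 5/4 of its 0h mean, with means of 33.9, 43.4 and 97.3 FPKM. SKA1, another kinetochore gene, went the other way with means of 3656, 4184 and 82.1 FPKM.

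**Figure D3:**
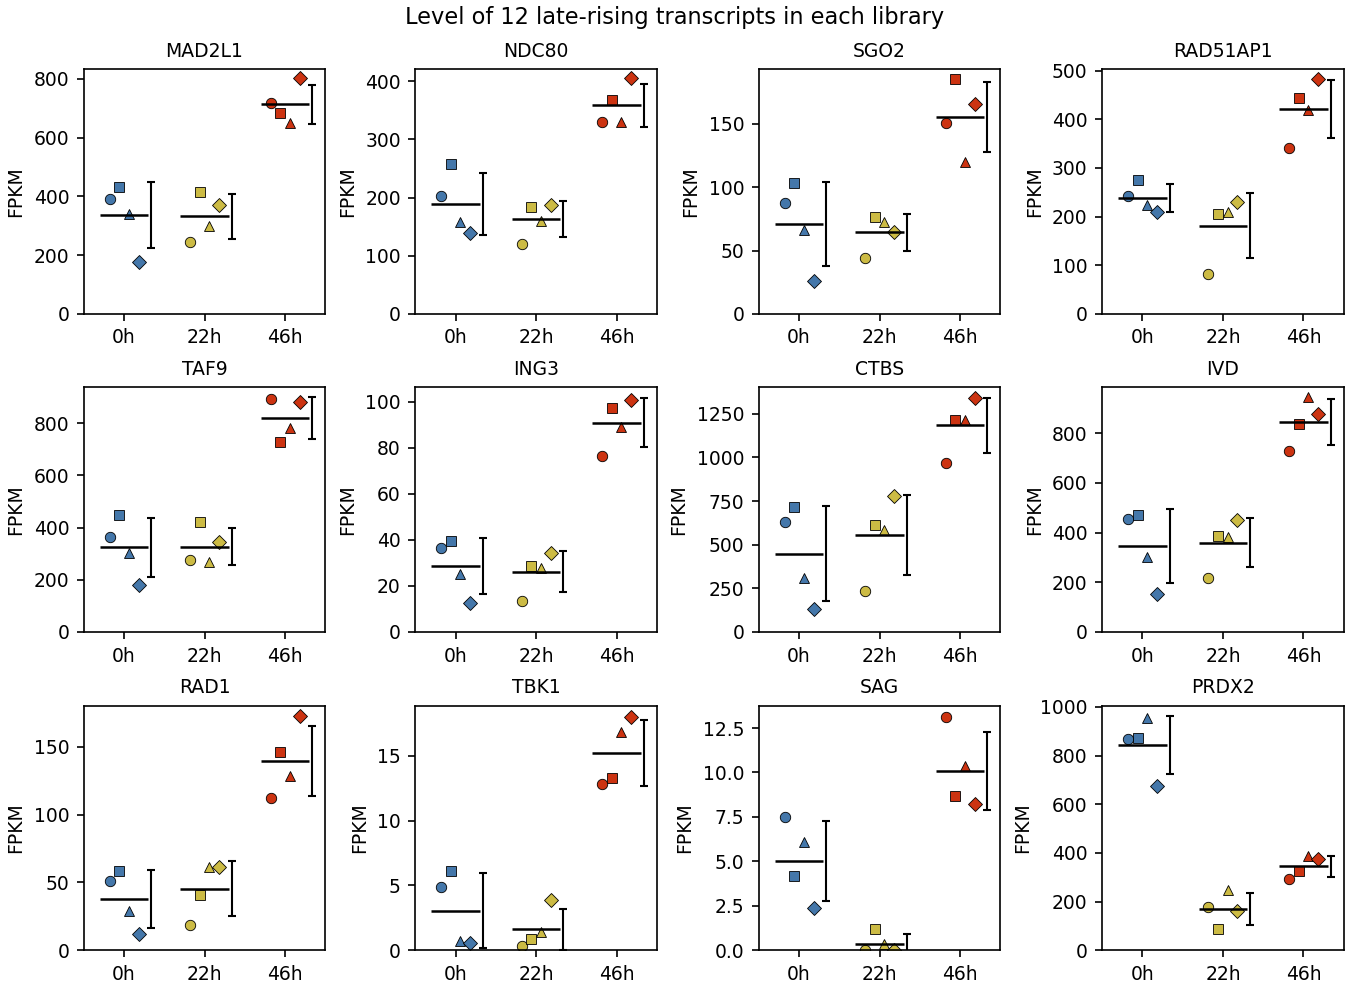
FPKM of 12 late-rising transcripts in each library at 0h, 22h and 46h, with symbols for replicates 1 to 4 as circles, squares, triangles and diamonds, lines for stage means and bars for 1 SD (n = 4). From MAD2L1 to TBK1 the 0h and 22h libraries overlap and all 46h libraries are higher. SAG is near 0 at 22h, and PRDX2 stays below its 0h level.

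Members in transcription and chromatin included 3 subunits of TFIID, the complex that recognises the core promoter for RNA polymerase. TAF9 (ENSSSCG00000038615, chr16:47494841-47499568) read 365, 447, 304 and 179 FPKM at 0h, 275, 422, 268 and 345 FPKM at 22h and 893, 728, 781 and 882 FPKM at 46h. Its 46h libraries were above all earlier ones, and the 46h mean was 2.51 times the 22h mean. The annotated exons of TAF9 overlap those of AK6 on the same strand, so reads of both can be mixed. TAF12 read 95.1, 93.9, 82.1 and 93.2 FPKM at 0h, 83.7, 109.7, 103 and 108 FPKM at 22h and 205, 199, 205 and 209 FPKM at 46h, and its stages at 0h and 22h overlapped. TAF13 had means of 21.6 ± 4.19 FPKM at 0h, 21.6 ± 2.62 at 22h and 45.2 ± 8.83 at 46h. Of the 10 TFIID subunits tested, on a list written after values had been seen, 3 were members, where 2.12% of all genes tested were. TAF9 met the rule every time a library was left out and under each of the other 4 scalings. TAF12 and TAF13 failed it at least once in both of these checks. On the same list 4 were higher at 46h than at 22h (9.87% of all genes) and 1 was lower (32.6%). The fourth higher one was TAF9B, with means of 18.7, 17.9 and 30.6 FPKM, and the lower one TAF7, with means of 36.1, 33.2 and 11.3 FPKM. TAF5 was called higher at 46h than at 0h but not than at 22h, with means of 7.04, 10.8 and 12.2 FPKM.

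ING3, a subunit of a histone acetyltransferase complex, had the largest ratio among members of the chromatin list, reading 36.6, 39.4, 25.4 and 12.8 FPKM at 0h, 13.6, 28.7, 27.8 and 34.4 FPKM at 22h and 76.5, 97.4, 89.0 and 101 FPKM at 46h. Its 46h libraries were apart from all others, and it had a 46h mean 3.48 times the 22h mean and 3.19 times the 0h mean. RBPJ, the DNA-binding protein of Notch signalling, had means of 30.5 ± 6.48 FPKM at 0h, 37.5 ± 9.53 at 22h and 103 ± 5.74 at 46h. ZNF567 and ZNF577, zinc finger proteins, had means of 21.8, 21.6 and 61.5 FPKM and of 11.1, 13.6 and 29.2 FPKM. Of 97 histone and chromatin modifiers tested 2 (2.06%) were members, ING3 and SIRT4, the latter a sirtuin of mitochondria, with means of 3.71, 4.35 and 8.79 FPKM. Of 127 zinc finger genes tested 5 were members (3.94%), against 2.12% of all genes tested. ZNF207, ZNF567 and ZNF883 met the rule every time a library was left out, and ZNF146 and ZNF577 did not. A list of 124 other transcription factors, chosen by symbol, also held 5 (4.03%), but 3 of them were the TFIID subunits above. Without that complex, ESRRG and KLF7 were the 2 members among 114 genes (1.75%), and the list does not name RBPJ, EBF1 or HNF4G, which are members too. No splicing factor of 133, no translation factor of 42, no cytosolic ribosomal protein of 42 and no respiratory chain subunit of 53 was a member. At 2.12% lists of these sizes would hold few members. Their median log2 differences between 46h and 22h were -0.31, -0.69, -1.95 and -1.30, against -0.26 over all genes tested. Lists of 163 ubiquitin ligases and their adaptors, 49 deubiquitinases and 67 protein phosphatases likewise held no member, with medians of -0.12, 0.01 and -0.18. Lists of 37 proteasome subunits, 29 autophagy and lysosome genes and 15 MOS and MAP kinase genes held none (medians -0.53, -0.17 and -0.28). The ubiquitin ligase list does not name the members CDC16 and SKP2. The autophagy and lysosome list does not name the members CTBS, LIPA and TBK1.

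Among DNA repair and checkpoint genes, RAD51AP1, a DNA-binding protein of homologous recombination, read 243, 275, 223 and 209 FPKM at 0h, 82.1, 205, 209 and 229.7 FPKM at 22h and 342, 444, 419 and 483 FPKM at 46h. Its 22h replicate 1 lay far below its stage, and all 46h libraries were above the rest. Its exons overlap those of DYRK4 on the same strand and of a gene on the other strand. DCLRE1A, a nuclease that acts on crosslinked DNA, read 134, 177, 114 and 57.5 FPKM at 0h, 125, 149, 144 and 163 FPKM at 22h and 397, 395, 417 and 448 FPKM at 46h, with a 46h mean 2.85 times the 22h mean and 3.43 times the 0h mean. RAD1, a subunit of the clamp that loads at damaged DNA, read 51.1, 58.7, 28.6 and 11.6 FPKM at 0h, 18.7, 40.4, 61.3 and 61.2 FPKM at 22h and 112, 146, 128 and 172 FPKM at 46h. In RAD1 the 0h replicate 4 and the 22h replicate 1 were the lowest of all, and every 46h library was above every earlier one. RAD51AP1, DCLRE1A and RAD1 each failed the rule at least once when a library was left out. Under the other 4 scalings RAD51AP1 met it every time, and DCLRE1A and RAD1 did not. A broader list of DNA repair and recombination genes, which names none of these genes, had no member among 51 genes tested, where 2.12% of all genes were members.

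By the roles given to the named members, 18 belonged to lipid and mitochondrial metabolism and 7 to sugar and nucleotide metabolism. CTBS (ENSSSCG00000003758, chr6:129173399-129207868), a lysosomal enzyme that trims the sugar chains of glycoproteins, was the highest of all members, reading 633, 719, 311 and 133 FPKM at 0h, 235, 615, 585 and 781 FPKM at 22h and 967, 1216, 1214 and 1339.8 FPKM at 46h. Its 0h libraries spread widely, and the 46h libraries were above all earlier ones. ORMDL1, a regulator of sphingolipid synthesis, read 464, 506, 321 and 215 FPKM at 0h, 255, 433, 417 and 510.3 FPKM at 22h and 939, 1052, 1025 and 1149.8 FPKM at 46h, with a 46h mean 2.58 times the 22h mean and 2.77 times the 0h mean. IVD, the mitochondrial enzyme of leucine breakdown that oxidises isovaleryl-CoA, read 454, 472, 301 and 154 FPKM at 0h, 219, 388, 382 and 451 FPKM at 22h and 727, 836, 945 and 876 FPKM at 46h, with the same separation. MSMO1, a sterol demethylase of cholesterol synthesis, had means of 127 ± 45.2 FPKM at 0h, 146 ± 35.3 at 22h and 327 ± 38.9 at 46h, and HSD17B12, an enzyme of fatty acid elongation, of 85.5 ± 42.4 FPKM at 0h, 96 ± 38 at 22h and 237 ± 36.1 at 46h. CYB5A, the electron carrier that serves several of these enzymes, read 224, 269, 185 and 113 FPKM at 0h, 104, 132, 132 and 156 FPKM at 22h and 335, 367, 382 and 423 FPKM at 46h. ORMDL1, IVD and CYB5A met the rule every time a library was left out, and MSMO1 and HSD17B12 did not.

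Genes of fatty acid oxidation included both members and genes that were lower at 46h. HADHB, the subunit of the mitochondrial trifunctional protein that makes the last cut of each cycle, read 60.7, 56.2, 41.0 and 38.6 FPKM at 0h, 40.4, 38.1, 50.01 and 51.6 FPKM at 22h and 85.1, 84.7, 100.1 and 103 FPKM at 46h. Its 46h libraries were above all earlier ones, at 2.07 times the 22h mean. HADHA, the other subunit of the same enzyme, named after its values were seen, read 119, 111, 122 and 79.6 FPKM at 0h, 23.1, 13.5, 32.0 and 17.8 FPKM at 22h and 1.79, 2.61, 2.01 and 2.40 FPKM at 46h. It was called lower at 46h than at 22h, and no library of one stage overlapped another. Under the other scalings its log2 difference between these stages ran from -2.93 to -2.21. HADH, a dehydrogenase of the same cycle, had means of 11.7 ± 2.47 FPKM at 0h, 11.2 ± 2.92 at 22h and 23.8 ± 4.64 at 46h, and SLC25A20, the carrier that takes acylcarnitines across the inner membrane, of 4.98 ± 1.39 FPKM at 0h, 5.25 ± 2.1 at 22h and 11.4 ± 2.41 at 46h. TMLHE, the first enzyme of carnitine synthesis, had means of 3.59, 2.49 and 5.05 FPKM and stages at 46h and 0h that overlapped. Over the 24 tested genes of a list written after values had been seen, 4 (16.7%, against 2.12% of all genes tested) were members. None of the 4 met the rule every time a library was left out, and none did so under all of the other 4 scalings. Of the 24 genes, 9 (37.5%, against 9.87%) were higher at 46h than at 22h and 8 (33.3%, against 32.6%) were lower. CPT2, which acts beside SLC25A20, was among the lower ones, with means of 4.36, 5.13 and 1.42 FPKM, and ETFA, which takes electrons from the first step, was among the higher ones, with 1690, 2238 and 3405 FPKM.

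The largest ratios among members with a symbol were those of 2 signalling genes. TBK1, a kinase of innate immune signalling and of selective autophagy, read 4.91, 6.10, 0.67 and 0.52 FPKM at 0h, 0.32, 0.86, 1.40 and 3.91 FPKM at 22h and 12.8, 13.3, 16.9 and 18.0 FPKM at 46h. The 0h libraries fell into 2 high and 2 low values, and all 46h libraries were above the rest. The 46h mean was 9.4 times the 22h mean, and 17.7 times without 22h replicate 4. SAG, the arrestin of photoreceptors, read 7.51, 4.18, 6.10 and 2.36 FPKM at 0h, 0, 1.18, 0.32 and 0 FPKM at 22h and 13.1, 8.67, 10.4 and 8.22 FPKM at 46h. It was listed at 0 in 2 libraries at 22h, where all values were below those at 0h, and at 46h stood above every earlier library. The largest ratio belonged to an identifier without a symbol, ENSSSCG00000050014, with 0.43, 0.15, 0 and 0.14 FPKM at 0h, 0, 0.20, 0.10 and 0 FPKM at 22h and 12.4, 20.7, 14.3 and 12.1 FPKM at 46h. It was the only member with a 0h mean under 1 FPKM, and the ratio of 198 rests on a 22h mean of 0.075 FPKM, being 446 without 22h replicate 2. STX7, a syntaxin of late endosomes, read 79.3, 103, 42.2 and 11.7 FPKM at 0h, 18.0, 55.4, 64.8 and 85.8 FPKM at 22h and 141, 192, 193 and 209 FPKM at 46h, with a 46h mean 3.28 times the 22h mean and 3.11 times the 0h mean. RGS2, a brake on G protein signalling, read 946, 852, 775 and 524 FPKM at 0h, 445, 440.0, 593 and 725 FPKM at 22h and 914, 1200.3, 1225 and 1157 FPKM at 46h, and its 46h and 0h libraries overlapped. SLC39A8 and SLC30A1, which carry zinc into and out of the cytoplasm, had means of 31.7, 37 and 102 FPKM and of 25.2, 25.6 and 64 FPKM. SLC35F4, a relative of nucleotide sugar carriers, had means of 35.5, 28.5 and 63.4 FPKM. Of 102 solute carriers tested 7 (6.86%) were members, against 2.12% of all genes tested. SLC35A1, SLC35F4 and SLC7A11 met the rule every time a library was left out. SLC25A20, SLC25A31, SLC30A1 and SLC39A8 failed it at least once. ICA1, a protein of secretory vesicles, had means of 41.9, 41 and 120 FPKM, TMEM115, a Golgi membrane protein, of 4.74, 3.57 and 12.2 FPKM, and RABGAP1, which switches off Rab GTPases, of 64.2, 43.4 and 122 FPKM. The small GTPases RHOT1, which tethers mitochondria to motors, and RAP1B had means of 15.2, 18.2 and 46.2 FPKM and of 12.7, 8.04 and 16.5 FPKM. Of 131 small GTPases and their regulators tested 4 (3.05%) were members. Among these members only RABGAP1 met the rule every time a library was left out. Among the 12 highest members at 46h were also C4orf3, with 285, 289, 228 and 153 FPKM at 0h, 165, 216, 203 and 239 FPKM at 22h and 561, 674, 609.5 and 654 FPKM at 46h, and ART3, a relative of ADP-ribosyltransferases, with means of 215, 228 and 487 FPKM. On the list of stored mRNAs and their activators 1 of 40 genes tested (2.5%) was a member, against 2.12% of all genes tested. This was DCP1A, part of the decapping complex that starts mRNA decay. DCP1A read 36.6, 34.8, 19.4 and 8.67 FPKM at 0h, 7.87, 16.1, 25.1 and 25.8 FPKM at 22h and 35.7, 49.2, 53.0 and 59.1 FPKM at 46h. Its lowest 46h library lay below its highest at 0h.

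**Figure D4:**
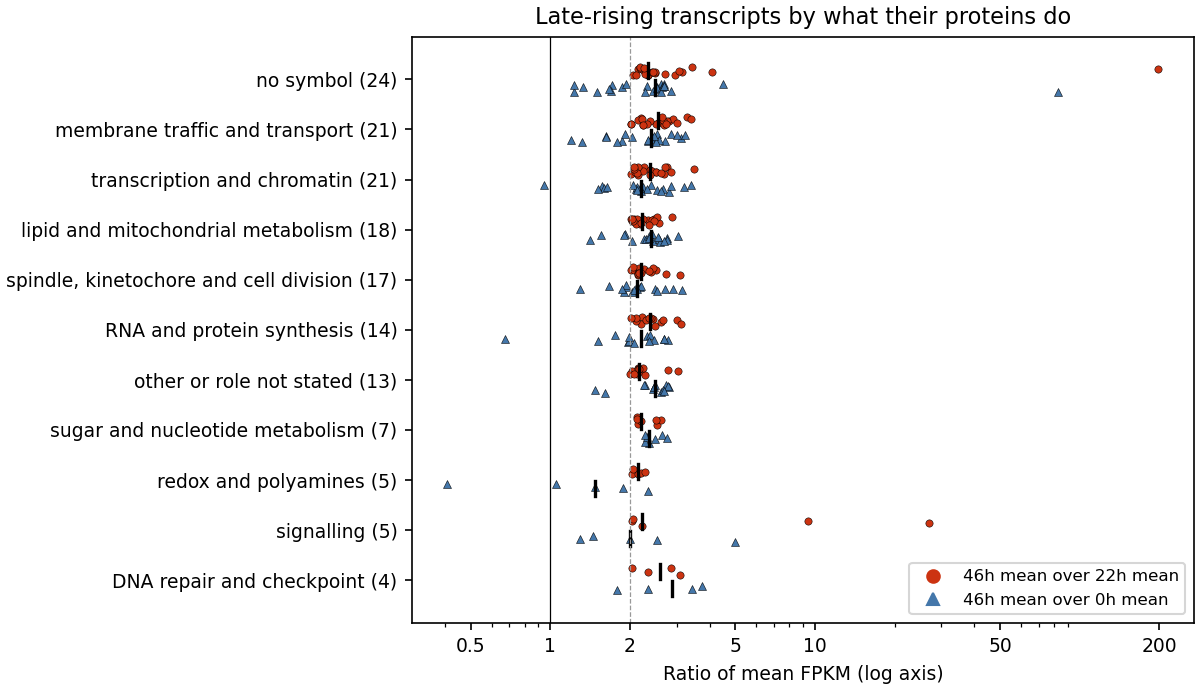
Ratio of mean FPKM at 46h to that at 22h (red circles) and to that at 0h (blue triangles) for each of the 149 late-rising transcripts, grouped by the role of the protein, with the number of transcripts in parentheses. The axis is logarithmic, black bars are medians and the dashed line marks the ratio of 2 in the rule. Red medians lie between 2.14 and 2.59 in every group, and the blue points reach below 1 for PRDX2, MRPS24 and HMGN3.

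A few members ended no higher than they began. PRDX2, a peroxidase that removes hydrogen peroxide, read 869, 872, 955 and 673 FPKM at 0h, 178, 88.9, 247 and 159.8 FPKM at 22h and 292, 325, 387 and 373 FPKM at 46h. Every 46h library was below every 0h library, and its 46h mean was 0.409 times the 0h mean. Its exons overlap those of RNASEH2A on the other strand. HMGN3, a nucleosome-binding protein, had means of 23.3 ± 12.9 FPKM at 0h, 8.81 ± 2.84 at 22h and 22.1 ± 2.07 at 46h, and MRPS24, a mitochondrial ribosomal protein, of 28.2 ± 6.51 FPKM at 0h, 9.48 ± 0.525 at 22h and 19 ± 3.98 at 46h. Among 55 mitochondrial ribosomal protein genes tested MRPS24 was 1 member (1.82%, against 2.12% of all genes), and 36 of the 55 (65.5%, against 32.6%) were lower at 46h than at 22h. TMX2, a thioredoxin-like membrane protein, dipped in the same way, with means of 111, 54.6 and 117 FPKM. The antioxidant genes SLC7A11, which imports cystine, and PRDX6 were flat early, with means of 8.57, 7.36 and 16.2 FPKM and of 4.52, 4.62 and 10.5 FPKM.

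Sequence features, which the rule did not use, were read for the 124 members (83.2%) and 5749 of the genes tested (82%) whose symbols matched a RefSeq gene of Sscrofa11.1. The rule did use level: the median 46h mean was 38.3 FPKM in all members and 4.77 FPKM in all genes tested. Features were not compared between genes of matched level. The median mRNA was 2372 bases long in the members and 3170 in all genes tested, with coding parts of 1262 and 1413 bases and 3′ UTRs of 804 and 957 bases. The median GC content of the mRNA was 42.1% in members, 46.7% in all genes tested, 49.2% in transcripts up by 22h and 46% in those lost after 22h. GC content of the coding part was 44.9% against 49.3%, and of the 3′ UTR 35.6% against 39.6%. Split by quartile of mRNA GC content, the members numbered 62, 30, 19 and 13 from the poorest to the richest, or 4.31%, 2.09%, 1.32% and 0.905% of the genes in each. The other genes moved with GC content as well: their median log2 difference between 46h and 22h was -0.02, -0.11, -0.33 and -0.61 over the same quartiles. In 0h replicate 4, the median gene stood 0.05, 0.10, 0.31 and 0.51 above the other 0h libraries on the log2 scale over these quartiles, and in 22h replicate 1 the same values against its stage were 0.07, 0.05, 0.07 and 0.04. For the members alone the median difference between 46h and 22h was 1.15, 1.09, 1.10 and 1.16 over the quartiles, held up by the ratio in the rule. Whether GC content of the libraries or of the genes sets this pattern was not tested.

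**Figure D5:**
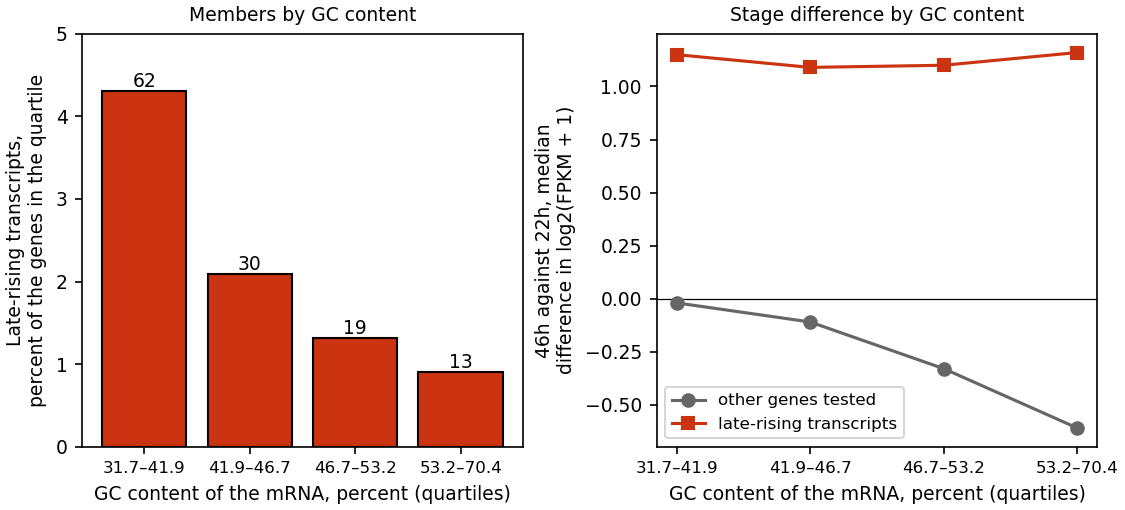
Late-rising transcripts by quartile of the GC content of the mRNA. Left, the percent of the genes of each quartile that are members, with their number above the bar, from 4.31% to 0.905%. Right, the median difference in log2(FPKM + 1) between 46h and 22h for members (red squares) and the other genes tested (grey circles), where the grey line falls from -0.02 to -0.61.

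The signals of the 3′ end were counted without a test. Among the 117 members with a 3′ UTR of at least 100 bases, 32 (27.4%) held TTTTAT or TTTTAAT in the last 100 bases, against 23.1% of all genes tested, 27.8% of transcripts up by 22h and 19.6% of those lost after 22h. The reverse complement of the element, which overlaps the hexamer AATAAA in part, was found in 40.2% of members and 41.1% of all genes tested. The hexamer AATAAA was present in 73.5% against 65.1%, and AATAAA or ATTAAA in the last 40 bases in 79.5% against 75.7%. The Pumilio site TGTANATA was present in 3.42% against 5.32%, and the AU-rich element TATTTAT in 7.69% against 4.74%. These are matches of letters on the annotated transcript with the longest coding part, not sites shown to act, and 29 of the 124 members had exons that overlap those of another gene.

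The edges of the rule passed between genes with close values, except for the last condition. C2orf42 and MRPS24 were just inside the ratio of 2 and DSTN and DNAJB4 just outside, all within 1.996 and 2.006. TMLHE and TYR were just above the floor of 5 FPKM at 46h, and ABHD3 and HHLA2, at 4.78 and 4.67 FPKM, just below. TTC17 and UGP2 had 22h means 1.248 and 1.247 times the 0h mean, and C5orf15 and DUS4L were just past the limit at 1.255 and 1.26. In GCNT1 and PHYHIPL the lowest 46h library was 0.12 and 0.34 FPKM above the highest at 22h, and in CDK17 the same difference was -0.05 FPKM. The next gene outside that condition, CCDC81, was farther off at -4.83 FPKM, with means of 16.5, 6.62 and 23.8 FPKM. With 0h replicate 4 and 22h replicate 1 left out together, an alternative added after these libraries were seen to stand apart, the rule found 126 transcripts, 107 of them among the 149. The median log2 difference of the 149 was then 1.06 between 46h and 22h, against 1.15 with all libraries, and 1.0 between 46h and 0h, against 1.14.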

How the data were processed

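Total RNA of pooled oocytes was amplified by SMART-Seq2 and sequenced, 4 libraries for each of 3 stages. The authors trimmed reads with Trim Galore, aligned them to Sscrofa11 with STAR and estimated the deposited FPKM values per Ensembl gene with RSEM, and no counts were used here. Depth is known only relatively: the commonest ratio of low values put the worth of 1 read at 0.859 to 1.34 times that in 46h replicate 1, so single low values carry counting error that cannot be bounded.

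FPKM were used as deposited. The study's own test needs counts, so limma 3.58.1 (R 4.3.3) was fitted to log2(FPKM + 1) with stage as the only factor, over 7013 genes averaging at least 1 FPKM, two-sided with Benjamini-Hochberg adjustment. It was tested on simulated data. The labels do not say that libraries came from separate collections, so the spread may be technical.

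The members, gene lists and role groups were chosen with earlier results of these data known. Genes named are the 12 highest at 46h, the 12 with the largest ratio of 46h mean + 1 to 22h mean + 1, both among members with a symbol, members of the written lists (for families, at most 3), and 2 on each side of a threshold; others were named after their values were seen. Gene symbols came from a table of Ensembl identifiers.

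RefSeq sequence (Sscrofa11.1, Annotation Release 106) was matched by symbol and synonym, which placed 119 members (79.9%). After those features had been seen, open reading frame names in pig style were added, which placed 124 (83.2%). With the first match alone, median GC content was 43% in members and 46.7% in all genes tested, and the polyadenylation element was found in 26.8% and 23%. In all, 8 length, GC and exon measures and 5 motifs were compared, and the split by quartile of 4 measures was added after the medians had been seen. None was tested. Pairs of signals in 30 bases or fewer were read with pysam 0.24.0. Alternatives were 4 other scalings, each library left out, a pseudocount of 0.1, other filters, a replicate block and other thresholds of the rule.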

Additional observations from a re-analysis of the deposited data

Results flagged for a closer look

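In 144 groups of 4 libraries, for the 48 members picked by the naming rule at each stage, 10 held a library whose gap to its nearest neighbour was above Dixon's 95% critical value, as a share of the whole range. About 5% of groups are expected to do so by chance. In 22h replicate 1, RAD51AP1 was low at 82.08 FPKM, with the others between 204.99 and 229.66. The same library was low for ZNF567 at 14.53 FPKM and for TTC17 at 4.7 FPKM. In 46h replicate 2, RHOT1 was low at 36.46 FPKM, UGP2 at 107.94 FPKM and PHYHIPL at 3.99 FPKM. In 46h replicate 4, SLC30A1 was high at 86.95 FPKM, with the others between 55.04 and 57.82. In 22h replicate 2, DLGAP5 was high at 252.68 FPKM and TYR at 3.89 FPKM. In 0h replicate 3, TAF12 was low at 82.09 FPKM.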

How the results depend on the processing

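The number of transcripts that met the rule depended on scaling and on its thresholds. Scaling by median ratios gave 396, of which 143 were among the 149, and quantile normalization gave 398, of which 114 were, while TPM gave 120, with 112 shared, and TPM without mitochondrial genome genes gave 141, with 126 shared. A ratio of at least 1.5 gave 403, a ratio of at least 3 gave 15, and a 22h mean no higher than the 0h mean gave 82. Leaving out single libraries gave 111 to 192, the lowest without 22h replicate 1 (94 shared) and the highest without 22h replicate 4 (141 shared). With each library left out in turn 71 of the 149 met the rule every time, 87 did so under all 4 scalings, and 68 under both. Among those that failed at least once with a library left out were RGS2, DLGAP5, PBK, RBPJ, STX7, ART3 and PRDX2.

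Genes higher at 46h than at 0h numbered 1179, and 2047 and 2878 under those 2 scalings. Between 46h and 22h the numbers were 692, 1408 and 1920 higher and 2283, 1769 and 1501 lower. The median of all genes between 46h and 22h moved from -0.26 to 0.03 and 0.19 under these scalings, and that of the members from 1.15 to 1.5 and 1.52. The share of higher calls among 46h and 0h differences moved with this shift: 1179 higher stood against 2743 lower, 2047 against 2255, and 2878 against 1860. Genes higher at 22h than at 0h numbered 550, and 1022 with quantile normalization. Leaving out single libraries gave 400 to 861, the highest without 0h replicate 4, and 879 without that library and 22h replicate 1 together. The 48 members picked by the naming rule kept the sign of every called log2 difference of 46h from 22h and from 0h under the alternatives run, and 43 and 48 of 1004 values for each moved by more than the spread between replicates. Their 22h against 0h differences, and other members named in the text, were not rerun gene by gene.

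The correlations of deviations between same-numbered libraries of different stages ran from -0.47 to 0.38, and between other-numbered ones from -0.43 to 0.53. These ranges overlap, so they do not settle whether replicate numbers pair the libraries. With a replicate block 1156, 670 and 504 genes were higher at 46h than 0h, 46h than 22h and 22h than 0h. Pooling of oocytes, relative depth and the scaling to a library total limit what a level shows.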
